A study of Mus musculus with 9 samples.

Results

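The nuclear-encoded genes of oxidative phosphorylation were followed in MEFs, the fibroblasts that grow out of cultured mouse embryos. Members were chosen by symbol, as all genes whose names mark them as subunits of mitochondrial complexes I to V (Nduf, Sdh, Uqcr and Cyc1, Cox and Atp5 names). The rule found 82 of the 20672 genes on the array, through 167 of its 45101 probe sets, which are groups of probes that read the same transcript. Complex I had 33 members, complex II 4, complex III 9, complex IV 19 and complex V 17. The controls expressed a short hairpin directed at GFP, a protein mouse cells lack (shGFP, n = 3 arrays). The shFoxk1 cells carried a hairpin against the forkhead transcription factor Foxk1 (n = 3), and the rescue cells had the same hairpin together with added Foxk1 (n = 3). All groups were grown in DMEM, and no other genotype, strain or treatment is stated in the labels, nor the sequence of the hairpin or the extent of the added Foxk1. Whether the 3 samples of a group were separate cultures is not stated, so p-values speak only to the variation among these samples and that may be technical.

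Oxidative phosphorylation makes most of a resting cell's ATP. Complex I takes electrons from NADH and complex II from succinate, coenzyme Q carries them to complex III, and cytochrome c carries them on to complex IV, which reduces oxygen. Complexes I, III and IV pump protons across the inner mitochondrial membrane, and complex V, the ATP synthase, uses the return of protons to make ATP. Complexes I, III, IV and V combine subunits encoded in mitochondrial DNA with the nuclear-encoded subunits described here, and complex II is nuclear-encoded throughout. Fibroblasts make ATP both by glycolysis and by this pathway.

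The values are log2 intensities, so a difference of 1 is a doubling, and each gene was read from the probe set with the highest mean over the 9 arrays. Levels of different probe sets depend on their probes, so 1 gene was not compared with another by level. Cuts on the mean level are used below only to group genes. The medians of the arrays were 5.92 to 5.95, and correlations within a group were 0.998 to 0.999. Foxk1 stood at 8.94 ± 0.05 (SD, n = 3) in shGFP, 7.82 ± 0.12 in shFoxk1 and 7.86 ± 0.16 in rescue. It fell by 1.12 in shFoxk1 (limma, adjusted p = 5.18e-05), and rescue differed from shFoxk1 by 0.04 with a 95% interval from -0.15 to 0.22, so this probe set does not check the label of the rescue cells. The median over 10 fibroblast markers lay between 11.9 and 12.3 on all arrays, and of these Fn1 rose in both hairpin groups against shGFP and Col3a1 in rescue against shGFP. The mean was higher than in shGFP for 5 of the 10 in shFoxk1 and for 6 in rescue. The median changes of the 10 were 0.004 and 0.05, and the lowest were -0.14 and -0.17. Among 5 macrophage markers, the receptor gene Csf1r fell by 0.38 in shFoxk1 and in rescue against shGFP, from a mean of 10.2, while the median changes of the 5 markers were -0.05 and 0.02 and the mean was higher for 2 and 3 of them. In bulk RNA, fewer cells of a type and less RNA per cell cannot be told apart. The part of either marker in the results below was not tested.

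Few of the subunit genes passed the test. In shFoxk1 against shGFP, 0 of the 82 members passed an adjusted p of 0.05, while 4.24% of all genes did (1.97% higher and 2.26% lower). In rescue against shFoxk1, 1 member passed, Ndufv3, where 0.953% of all genes did (0.653% higher and 0.3% lower). In rescue against shGFP the same gene was the 1 member that passed, beside 5.04% of all genes (2.5% higher and 2.54% lower). All tests were limma's, adjusted by Benjamini-Hochberg over the 20672 genes. At an unadjusted p under 0.05 there were 5 members (6.10%) in shFoxk1 against shGFP, 7 (8.54%) in rescue against shFoxk1 and 10 (12.2%) in rescue against shGFP, beside 16.8%, 13.8% and 18.0% of all genes. The comparisons share groups of arrays, so their values are given side by side and are not independent of each other.

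The size of the differences was bounded by their intervals. The 95% interval lay within a 1.25-fold change in either direction for 79 of 82 members in shFoxk1 against shGFP, 75 in rescue against shFoxk1 and 78 in rescue against shGFP, and the same held for 83.8%, 85.5% and 83.4% of all genes. For 75 members it lay within that bound in all 3 comparisons. The median size of a change, without its sign, was 0.04 in each comparison over the members, beside 0.06, 0.06 and 0.07 over all genes. With the median standard error (SE) of the members, 0.0491, a change had to reach about 0.20 in shFoxk1 against shGFP, 0.24 in rescue against shFoxk1 and 0.19 in rescue against shGFP to pass the adjusted threshold in this fit.

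**Figure D1:**
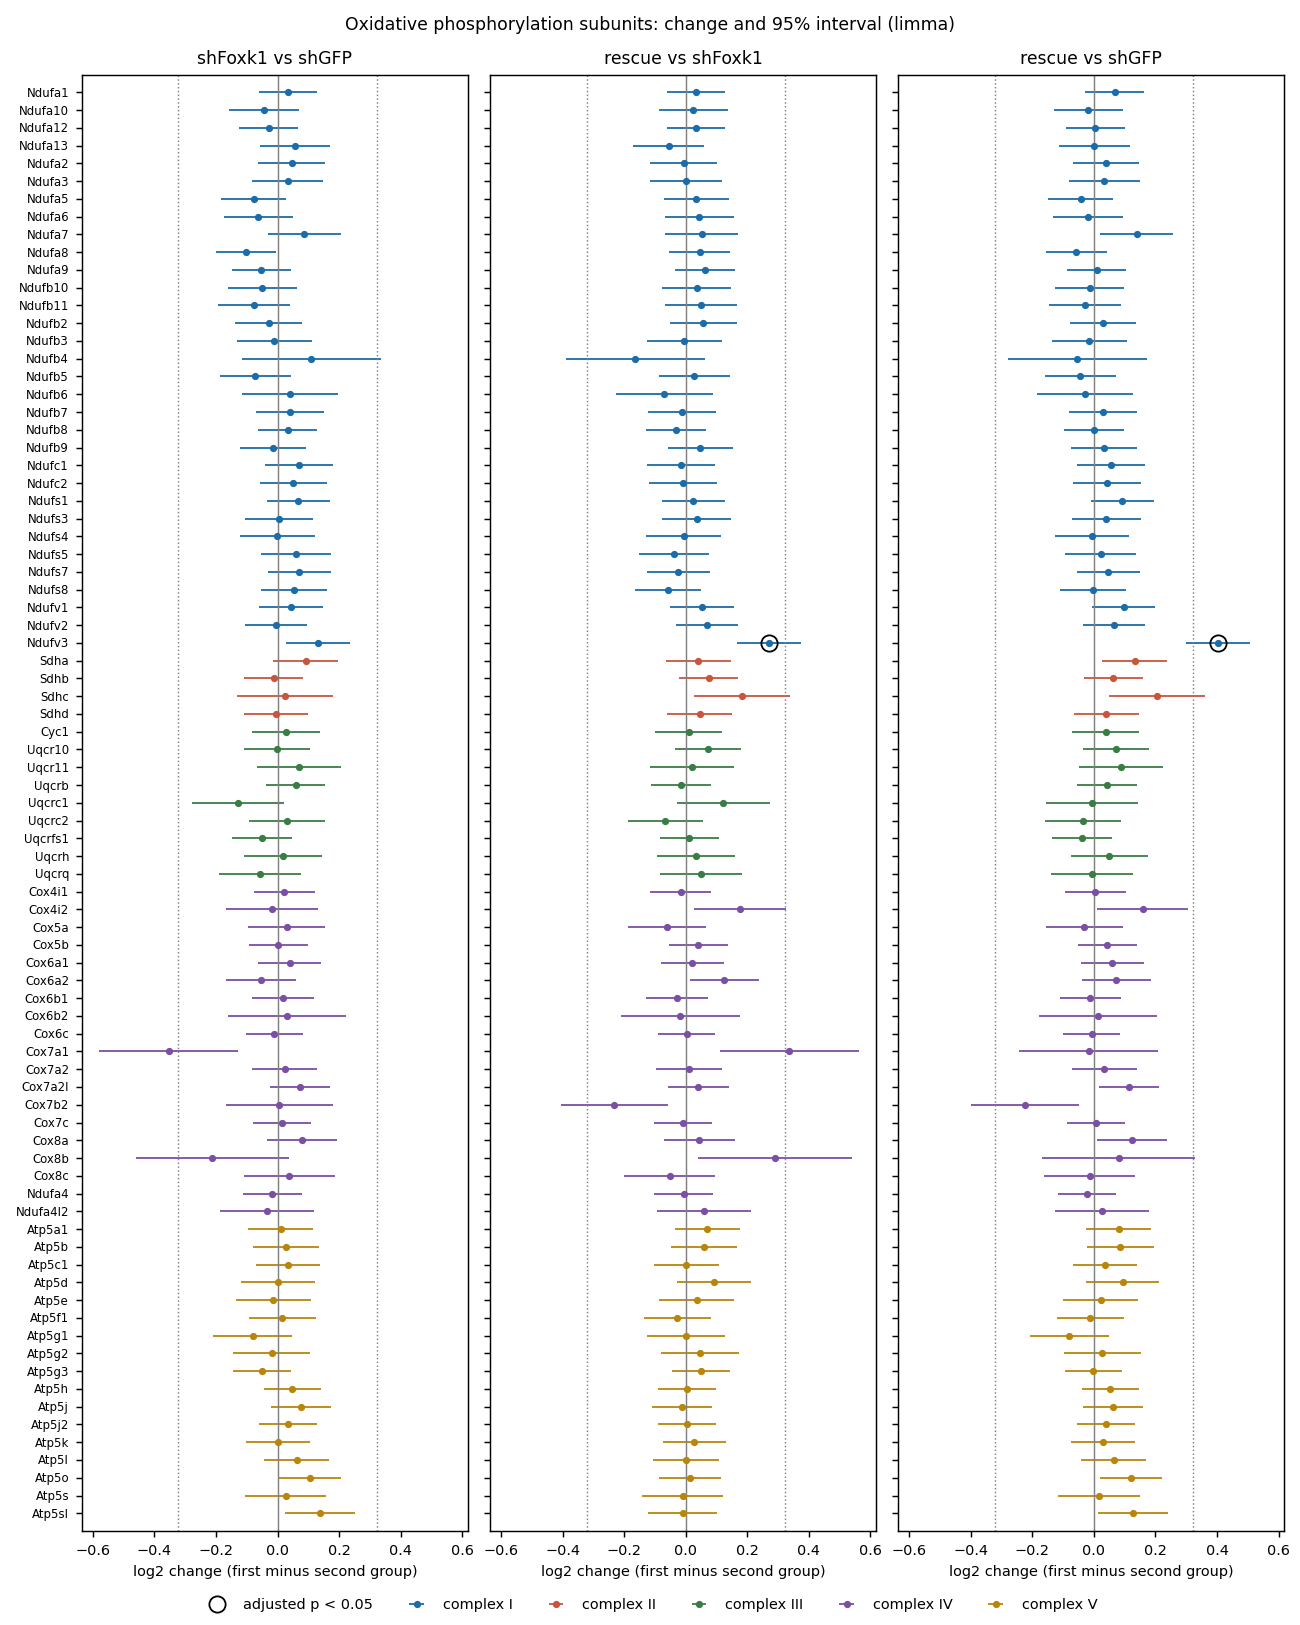
Log2 change (x axis, first named minus second named group) of 81 of the 82 subunit genes (rows), with its 95% interval from limma, in the 3 comparisons; colours mark the complex, circles mark an adjusted p under 0.05 and dotted lines mark a 1.25-fold change. Most points sit close to 0, and Ndufv3 is the 1 circled gene, at 0.27 in rescue against shFoxk1 and 0.40 in rescue against shGFP.

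How precisely a member was measured went with its level. A mean of 10 or more was found for 71 members, and their median SD within a group was 0.0381, against 0.0851 for the other 11, which include the muscle, testis and oxygen-regulated isoforms of complex IV. Among the brighter members other than Ndufv3, the changes in shFoxk1 against shGFP ran from -0.13 (Uqcrc1) to 0.11 (Atp5o), and the outermost bounds of their intervals were -0.28 and 0.21. In rescue against shFoxk1 they ran from -0.07 (Ndufb6) to 0.18 (Sdhc), with outermost bounds of -0.23 and 0.34. In rescue against shGFP they ran from -0.08 (Atp5g1) to 0.21 (Sdhc), with outermost bounds of -0.21 and 0.36. Of the 3769 genes at 10 or more, 6.05%, 1.46% and 7.61% were called in the 3 comparisons, in the same order.

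The signs of the small differences leaned upward and depended on the scaling. The mean was higher in shFoxk1 than in shGFP for 50 of 82 members (61.0%), higher in rescue than in shFoxk1 for 55 (67.1%) and higher in rescue than in shGFP for 56 (68.3%), where 51.2%, 55.3% and 57.0% of all genes were higher. The median change was 0.02, 0.03 and 0.03 in that order, but with each array centred on its own median it was -0.006, 0.002 and -0.015, and the shares of members that were higher became 46.3%, 51.2% and 34.1%, beside 40.8%, 45.5% and 38.0% of all genes. The median deviation of the members from their mean over all arrays was -0.015, 0.033 and -0.038 on the shFoxk1 arrays, -0.006, -0.007 and -0.029 on the shGFP arrays and 0.024, 0.016 and 0.010 on the rescue arrays. The shFoxk1 replicate 2 array was the highest of the 9 and replicate 3 of the same group the lowest, and all rescue arrays lay above all shGFP arrays. Without shFoxk1 replicate 2, the median change in shFoxk1 against shGFP was -0.004 and that in rescue against shFoxk1 0.046, and without shFoxk1 replicate 3 they were 0.028 and 0.004. Without shGFP replicate 3, the median change in shFoxk1 against shGFP was 0.006.

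**Figure D2:**
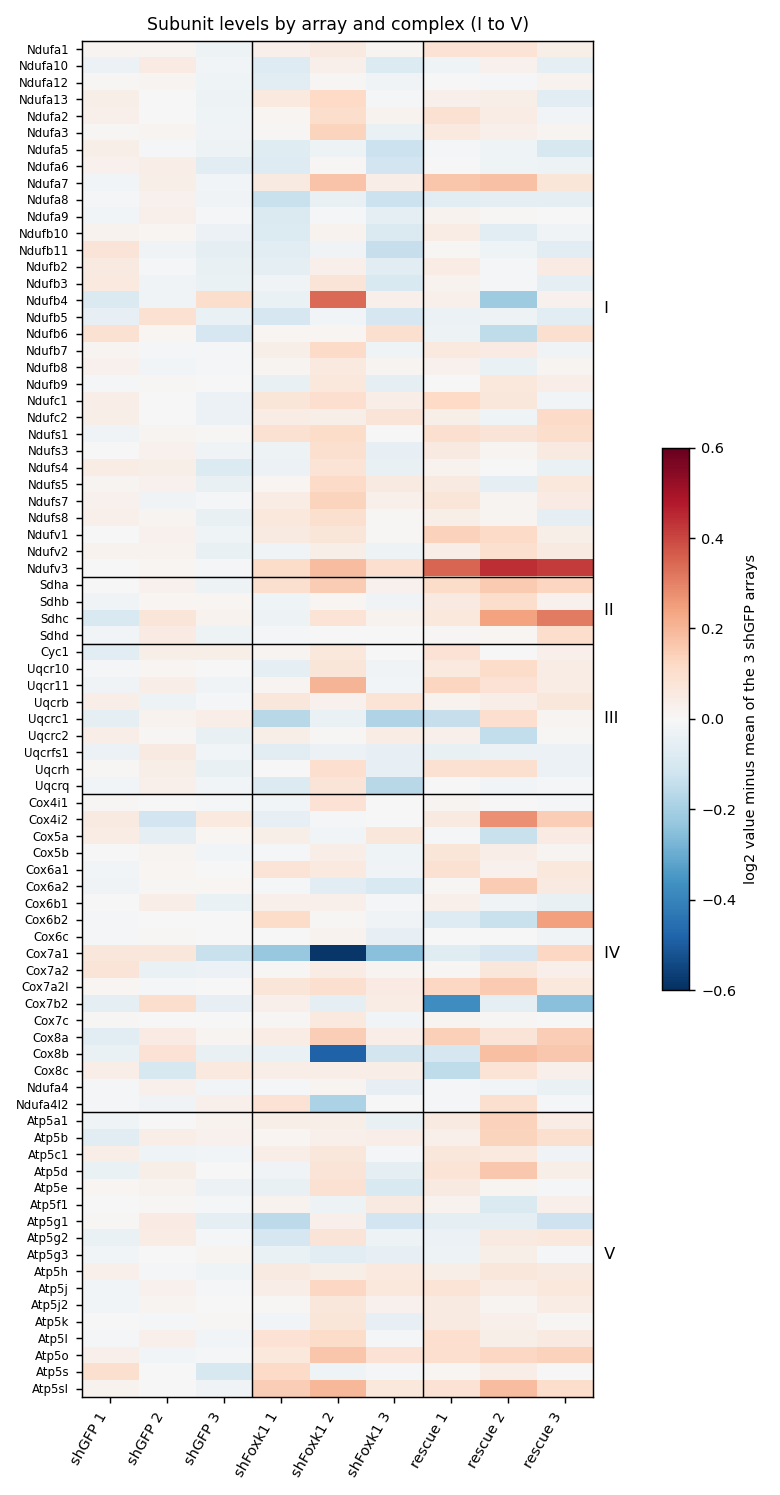
Each cell gives the log2 value of a subunit gene (81 rows, grouped by complexes I to V) on an array (columns) minus its mean over the 3 shGFP arrays. The row of Ndufv3 is the deepest red in the rescue columns, the shFoxk1 2 column is slightly red over many rows, and the strongest single cells elsewhere belong to complex IV isoforms such as Cox7a1 and Cox8b.

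Overlap between the arrays was counted as well, without a test. In shFoxk1 against shGFP, 12 members (14.6%) had no overlap, 9 higher and 3 lower, beside 22.0% of all genes (11.6% higher and 10.4% lower). In rescue against shFoxk1 there were 10 (12.2%), all higher, beside 15.6% of all genes (8.46% higher and 7.17% lower). In rescue against shGFP there were 22 (26.8%), 20 higher and 2 lower, beside 22.3% of all genes (12.0% higher and 10.3% lower).

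Ndufv3 was the exception. It encodes an accessory subunit of the flavoprotein part of complex I, the tip where NADH is oxidised, and it was read by a single probe set. Its values were 11.27, 11.28 and 11.25 on the shGFP arrays, 11.38, 11.45 and 11.37 on the shFoxk1 arrays and 11.61, 11.71 and 11.68 on the rescue arrays. The 3 groups did not overlap, with shGFP lowest and rescue highest. Ndufv3 rose 1.32-fold in rescue against shGFP (log2 change 0.40, SE 0.0467, adjusted p = 0.000854), and this call was kept without each array in turn, with changes of 0.38 to 0.43, and at 0.36 with arrays centred on their medians. It also rose in rescue against shFoxk1 (0.27, SE 0.0467, 1.21-fold, adjusted p = 0.0253). In shFoxk1 against shGFP the difference was 0.13 (95% interval 0.03 to 0.24, adjusted p = 0.169) and did not pass.

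The call of Ndufv3 in rescue against shFoxk1 lay close to the threshold. Its adjusted p was 0.0514, 0.0525 and 0.0518 without shGFP replicates 1, 2 and 3, 0.122 and 0.110 without shFoxk1 replicates 1 and 3, and 0.0897 and 0.102 without rescue replicates 2 and 3, while the change stayed between 0.25 and 0.30. It was 0.0561 when all probe sets were tested, the same as in the authors' deposited table, and 0.111 when only the 6 arrays compared entered the fit. The other flavoprotein subunits, the catalytic Ndufv1 and Ndufv2, were 0.10 (95% interval -0.01 to 0.20) and 0.06 (-0.04 to 0.16) higher in rescue than in shGFP and did not pass.

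**Figure D3:**
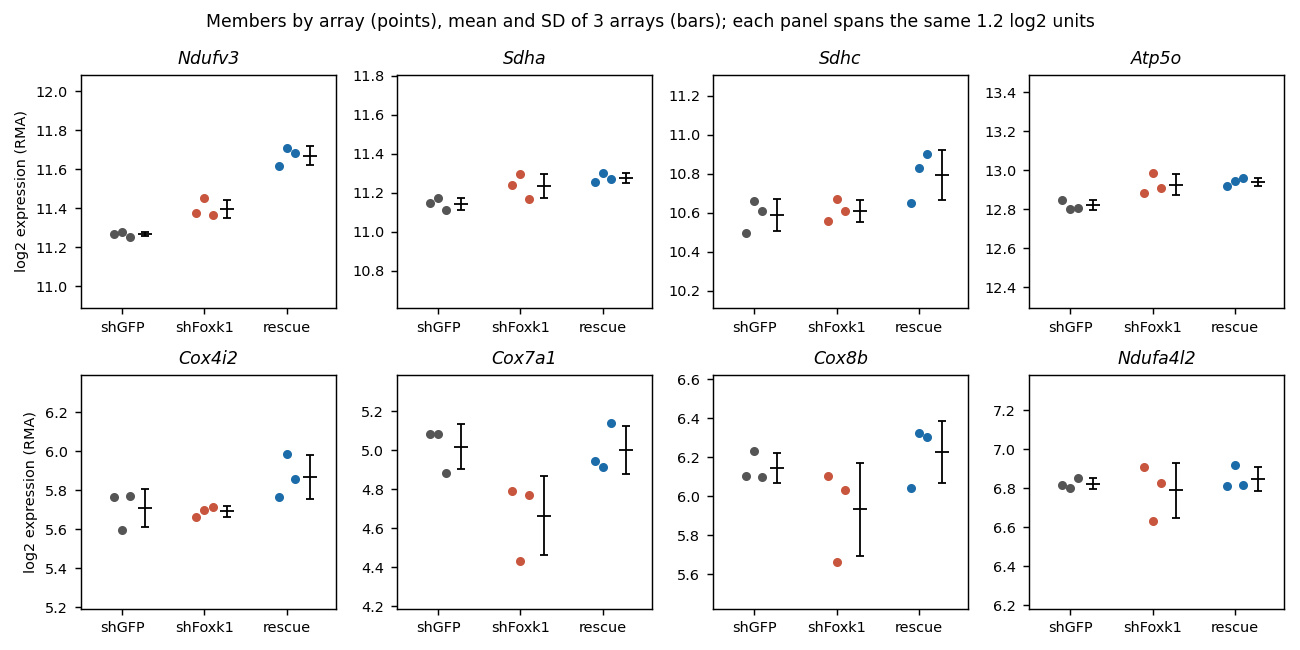
Log2 expression (y axis) of 8 subunit genes on each of the 9 arrays (points), with the mean and SD of 3 arrays (bars); each panel spans the same height of log2 units. Ndufv3 shows no overlap between the groups, while the other genes overlap between at least 1 pair of groups, and single low arrays widen the SD of Cox7a1 and Cox8b in shFoxk1.

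Promoters are shown because the nuclear subunits are classic targets of the factors NRF1, GABP and YY1, and because the manipulated gene encodes a forkhead factor. RefSeq promoter windows (build GRCm38.p6, 250 bases before to 50 after the transcript start) were found for 66 of the 82 members, with 72 windows in all. The NRF1 motif, which is GCGC, any 2 bases and GCGC again, stood in 23.6% of them, the ETS motif CCGGAAG that GABP binds in 22.2% and the YY1 motif AANATGGC in 23.6%, where the shares of all 32851 windows were 6.23%, 8.86% and 6.05%. Windows of genes at a mean of 10 or more held them in 16.9%, 21.8% and 10.3% of cases. The 64 windows of members at that level held them in 16, 16 and 15 cases. At least 1 of the 3 stood in 61.1% of the windows of members of any level, 18.7% of all windows and 41.0% of those of the brighter genes. The forkhead motif GTAAACA stood in 4.17% of the members' windows, beside 3.65% of all windows. These are 3 windows of 2 genes, Atp5sl and Cox7a2, so by gene the shares were 3.03% of the members and 4.05% of all genes. At a mean of 10 or more, the forkhead motif stood in 1 of 64 windows of members (1.56%), beside 2.16% of the windows of all genes at that level. The hypoxia response core ACGTG stood in 29.2% of the members' windows, beside 19.6% of all windows. At a mean of 10 or more, it stood in 16 of 64 windows of members and in 1110 of 3837 windows of all genes (28.9%), so the members' share was the lower one there. Both strands were searched, and a match is a description of letters, not a bound site.

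The windows of 3 members are printed 5′ to 3′ on the strand of the gene, with matches in capitals. Ndufv3, the gene that was called, lies on the plus strand at chr17:31519865-31520164, and its ACGTG begins at base 12 of the transcript; the window holds none of the other letters searched. Sdhd, a membrane anchor of complex II, lies on the minus strand at chr9:50603800-50604099 and has an NRF1 match that begins 79 bases before the start and an ETS match, read on the opposite strand, 46 bases before it. Cox7a2, a complex IV subunit on the minus strand at chr9:79759804-79760103, has the forkhead letters 212 bases before its start.
Ndufv3: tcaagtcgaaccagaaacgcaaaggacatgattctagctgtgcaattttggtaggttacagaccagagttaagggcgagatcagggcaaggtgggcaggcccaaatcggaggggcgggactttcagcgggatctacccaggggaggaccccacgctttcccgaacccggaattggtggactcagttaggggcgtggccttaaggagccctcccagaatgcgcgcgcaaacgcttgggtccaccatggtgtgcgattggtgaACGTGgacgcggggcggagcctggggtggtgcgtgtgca
Sdhd: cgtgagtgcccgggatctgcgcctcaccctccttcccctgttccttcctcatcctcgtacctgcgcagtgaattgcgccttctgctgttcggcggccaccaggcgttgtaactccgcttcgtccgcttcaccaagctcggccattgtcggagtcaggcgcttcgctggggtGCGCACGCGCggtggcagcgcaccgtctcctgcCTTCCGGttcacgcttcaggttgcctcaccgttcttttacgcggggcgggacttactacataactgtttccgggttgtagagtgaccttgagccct
Cox7a2: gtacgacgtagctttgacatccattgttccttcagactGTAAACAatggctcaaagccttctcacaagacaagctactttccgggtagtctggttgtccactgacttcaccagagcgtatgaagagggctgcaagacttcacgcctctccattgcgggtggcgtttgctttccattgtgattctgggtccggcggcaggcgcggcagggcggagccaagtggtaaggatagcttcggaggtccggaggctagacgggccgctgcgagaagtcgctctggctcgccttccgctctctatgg
The genes with the forkhead letters were not called. Cox7a2 differed by 0.02 in shFoxk1 against shGFP (95% interval -0.08 to 0.13), and Atp5sl by 0.14 (0.02 to 0.25, adjusted p = 0.195).

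Beyond Ndufv3, 0 members of complex I passed. Of its 33 members, 18 had a higher mean in shFoxk1 than in shGFP and 15 a lower one, with a median change of 0.03. The core subunits, which carry the flavin and the iron-sulphur clusters, gave 0 calls among 7 with limma, and 0 at an unadjusted p under 0.05. Ndufs1, the largest of the iron-sulphur subunits, was 0.07 higher in shFoxk1 (95% interval -0.03 to 0.17) and 0.09 higher in rescue than in shGFP (-0.01 to 0.19). Ndufs3, another core subunit of the arm, differed by 0.01 in shFoxk1 against shGFP (-0.11 to 0.12).

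Among the accessory subunits of complex I other than Ndufv3, the smallest p-values were those of Ndufa8 and Ndufa7. Ndufa8 stood at 12.04, 12.07 and 12.02 in shGFP, 11.91, 12.00 and 11.92 in shFoxk1 and 11.98, 11.99 and 11.99 in rescue. All shFoxk1 arrays were below all shGFP arrays, but the difference of -0.10 did not pass (95% interval -0.20 to -0.003, adjusted p = 0.278). Ndufa7 was 0.14 higher in rescue than in shGFP (0.02 to 0.26, adjusted p = 0.197), again with no overlap. Ndufb4 was read by a single probe set at a mean between 4.68 and 4.84, and it differed by 0.11 in shFoxk1 against shGFP with a wide interval, from -0.12 to 0.34.

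Complex II, succinate dehydrogenase, belongs both to the respiratory chain and to the citric acid cycle. All 4 members had a higher mean in rescue than in either other group, though none passed, and the median change against shGFP was 0.10. Sdha, the flavoprotein that oxidises succinate, had values of 11.15, 11.17 and 11.11 in shGFP, 11.24, 11.30 and 11.17 in shFoxk1 and 11.25, 11.30 and 11.27 in rescue. Its rescue arrays lay above all shGFP arrays and overlapped with shFoxk1, and the difference from shGFP was 0.13 (95% interval 0.03 to 0.24, adjusted p = 0.173).

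Sdhc, a membrane anchor that holds the heme with Sdhd, had values of 10.50, 10.66 and 10.61 in shGFP, 10.56, 10.67 and 10.61 in shFoxk1 and 10.65, 10.83 and 10.90 in rescue. Its rescue replicate 1 lay within the range of the other groups, and the difference from shGFP was 0.21 (95% interval 0.05 to 0.36, adjusted p = 0.146). Without rescue replicate 1 it was 0.28 and passed (adjusted p = 0.0411). Sdhb, the iron-sulphur subunit, was 0.06 higher in rescue than in shGFP (-0.03 to 0.16), and Sdhd was 0.04 higher (-0.06 to 0.14).

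Complex III, the cytochrome bc1 complex, had no member at an unadjusted p under 0.05 in any of the 3 comparisons, and 9 of 9 intervals lay within the 1.25-fold bound in each. Cyc1, cytochrome c1, stood at 13.11, 13.21 and 13.21 in shGFP, 13.19, 13.24 and 13.18 in shFoxk1 and 13.26, 13.17 and 13.21 in rescue, and differed by 0.03 in shFoxk1 against shGFP (95% interval -0.08 to 0.14). Uqcrfs1, the Rieske iron-sulphur protein, differed by -0.05 (-0.15 to 0.05). The widest spread was in Uqcrc1, a core protein of the matrix side, at 12.33, 12.41 and 12.43 in shGFP, 12.22, 12.35 and 12.21 in shFoxk1 and 12.25, 12.49 and 12.40 in rescue. Its groups overlapped in each comparison, with differences of -0.13 (-0.28 to 0.02) in shFoxk1 against shGFP and 0.12 (-0.03 to 0.27) in rescue against shFoxk1. Of the small subunits, Uqcr10 and Uqcr11 were 0.07 and 0.09 higher in rescue than in shGFP without overlap, and Uqcrb was 0.06 higher in shFoxk1 than in shGFP, and none of these passed.

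Complex IV, cytochrome c oxidase, is the complex with tissue and oxygen-regulated isoforms. Its 10 ubiquitous members gave 0 calls with limma in all 3 comparisons (0, 0 and 1 at an unadjusted p under 0.05), and their changes in shFoxk1 against shGFP ran no higher than 0.08 (Cox8a). Cox4i1, the ubiquitous form of subunit 4, had values of 13.99, 13.98 and 13.98 in shGFP, 13.97, 14.07 and 13.98 in shFoxk1 and 14.00, 13.99 and 13.98 in rescue. It differed by 0.02 in shFoxk1 against shGFP (95% interval -0.08 to 0.12). Cox5a and Cox5b differed by 0.03 (-0.10 to 0.16) and 0.00 (-0.09 to 0.10) in the same comparison, Cox6a1 by 0.04 (-0.06 to 0.14) and Ndufa4, a former complex I gene now placed in complex IV, by -0.02 (-0.11 to 0.08). Cox7a2l, which joins complexes III and IV into supercomplexes, was 0.11 higher in rescue than in shGFP without overlap (0.02 to 0.21, adjusted p = 0.204). Cox8a was 0.12 higher in the same comparison (0.01 to 0.24, adjusted p = 0.239).

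Several subunits of complex IV have isoforms known from other tissues. Cox7a1, the heart and muscle form, had values of 5.09, 5.09 and 4.89 in shGFP, 4.79, 4.43 and 4.77 in shFoxk1 and 4.95, 4.92 and 5.14 in rescue. All shFoxk1 arrays were below all others, and the differences were -0.35 in shFoxk1 against shGFP (95% interval -0.58 to -0.13, adjusted p = 0.0883) and 0.34 in rescue against shFoxk1 (0.11 to 0.56, adjusted p = 0.197), neither of which passed. Cox8b, the muscle form of subunit 8, had values of 6.11, 6.23 and 6.10 in shGFP, 6.11, 5.66 and 6.04 in shFoxk1 and 6.04, 6.33 and 6.31 in rescue. Its groups overlapped in every comparison, and rescue differed from shFoxk1 by 0.29 (0.04 to 0.54, adjusted p = 0.291). For both genes shFoxk1 replicate 2 was the lowest of the 9 arrays. All values of both lay below the median level of 6.56 over all genes, so a filter on low values left them out. Cox6a2, another muscle form, was 0.13 higher in rescue than in shFoxk1 (0.01 to 0.24, adjusted p = 0.310). Of 8 skeletal muscle and 5 heart muscle markers, 0 were called in any comparison with limma, with 3, 1 and 0 at an unadjusted p under 0.05, and the median level of the skeletal markers lay between 5.07 and 5.42 on all arrays.

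Cox4i2, the form of subunit 4 that is induced at low oxygen in some tissues, had values of 5.76, 5.60 and 5.77 in shGFP, 5.66, 5.70 and 5.71 in shFoxk1 and 5.76, 5.99 and 5.86 in rescue. Rescue arrays lay above all shFoxk1 arrays, and the difference of 0.18 did not pass (95% interval 0.03 to 0.33, adjusted p = 0.284). All values of Cox4i2 were likewise below the median of 6.56 over all genes. Ndufa4l2, a paralogue of Ndufa4 and a known target of the hypoxia factor HIF1, differed by -0.03 in shFoxk1 against shGFP (-0.19 to 0.12) and by 0.06 in rescue against shFoxk1 (-0.09 to 0.21). Its groups overlapped in all 3 comparisons. Cox7b2, a testis form, differed by -0.23 in rescue against either other group, with adjusted p = 0.246 against shFoxk1 and 0.158 against shGFP. Without rescue replicate 2 the difference of Cox7b2 from shGFP was -0.31 and passed (adjusted p = 0.0423).

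Complex V, the ATP synthase, gave 0 calls among 17 members with limma (2, 0 and 2 at an unadjusted p under 0.05 in the 3 comparisons), and 17 of 17 intervals lay within the 1.25-fold bound in each comparison. Atp5a1 and Atp5b encode the alpha and beta subunits of the catalytic head. Atp5a1 differed by 0.01 (95% interval -0.10 to 0.12) and Atp5b by 0.03 (-0.08 to 0.14) in shFoxk1 against shGFP, and they were 0.08 and 0.09 higher in rescue than in shGFP. The 3 genes Atp5g1, Atp5g2 and Atp5g3 encode the same mature c subunit of the membrane ring. In shFoxk1 against shGFP they differed by -0.08 (-0.21 to 0.05), -0.02 (-0.14 to 0.11) and -0.05 (-0.14 to 0.04), and in rescue against shGFP by -0.08, 0.03 and 0.00.

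Atp5o, the stalk subunit OSCP that ties the head to the membrane part, had values of 12.85, 12.80 and 12.81 in shGFP, 12.88, 12.99 and 12.91 in shFoxk1 and 12.92, 12.94 and 12.96 in rescue. Both hairpin groups lay above all shGFP arrays, with differences of 0.11 (95% interval 0.005 to 0.21, adjusted p = 0.271) and 0.12 (0.02 to 0.22, adjusted p = 0.193). Atp5d, a subunit of the central stalk, was 0.09 higher in rescue than in shFoxk1 (-0.03 to 0.21). Atp5s and Atp5sl carry the name of the complex without being structural subunits of it, and Atp5sl was 0.14 higher in shFoxk1 than in shGFP and 0.13 higher in rescue, in both cases without overlap and without passing.

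Dimmer probe sets of the same genes were read as a further measurement that did not enter the counts above. There were 85 of them, and 0 were called in any comparison by limma over all probe sets, with 5 at an unadjusted p under 0.05 in the knockdown comparison, 3 in rescue against shFoxk1 and 8 in rescue against shGFP. Their median changes were 0.01, 0.03 and 0.04. The changes ran from -0.17 (Sdha) to 0.22 (Cox8a) in the knockdown comparison. This Sdha change had the opposite sign to that of the brightest Sdha probe set. In rescue against shFoxk1 they ran from -0.27 (Cox7c) to 0.19 (Uqcrq), and in rescue against shGFP from -0.20 (Ndufa12) to 0.23 (Atp5sl). For the 51 at a mean of 10 or more, the knockdown changes ran from -0.10 to 0.18.

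Genes that build or regulate the complexes were followed in lists that, like the members, were chosen with earlier results of these data known. Among 47 assembly factors, 2 fell in shFoxk1 against shGFP, Sco2 and Ndufaf4, and the list's median change was -0.02. The share called was 4.26% there, 2.13% in rescue against shFoxk1 and 8.51% in rescue against shGFP, beside 4.24%, 0.953% and 5.04% of all genes. Sco2, which delivers copper to complex IV, had values of 9.43, 9.52 and 9.45 in shGFP, 8.91, 9.07 and 9.03 in shFoxk1 and 8.98, 9.08 and 9.04 in rescue. Both hairpin groups lay below all shGFP arrays, and Sco2 fell by 0.46 in shFoxk1 (SE 0.0555, adjusted p = 0.00102) and by 0.44 in rescue against shGFP (adjusted p = 0.00142), calls that were kept without each array in turn. Ndufaf4, a complex I assembly factor, had values of 11.48, 11.44 and 11.38 in shGFP, 11.23, 11.24 and 11.24 in shFoxk1 and 11.13, 11.04 and 11.10 in rescue. Its 3 groups did not overlap, and it fell by 0.34 in rescue against shGFP (adjusted p = 0.00203, kept without each array in turn). In shFoxk1 it fell by 0.20 (adjusted p = 0.0426), a call that was lost without any 1 of the shGFP or shFoxk1 arrays (adjusted p of 0.0632 to 0.144), without rescue replicate 3 (0.0679), with the mean of its probe sets (0.105), with all probe sets tested (0.0700) and with only the 6 arrays compared (0.0583).

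In rescue against shFoxk1, 1 assembly factor rose and 0 fell. Higd1a, which associates with complex IV and is known to be induced at low oxygen, had values of 12.31, 12.30 and 12.28 in shGFP, 12.24, 12.10 and 12.15 in shFoxk1 and 12.61, 12.53 and 12.47 in rescue. Rescue was the highest and shFoxk1 the lowest of the groups, without overlap. Higd1a rose by 0.37 in rescue against shFoxk1 (SE 0.0529, adjusted p = 0.00899), which was kept without each array in turn, and its adjusted p was 0.0521 when only the 6 arrays compared were fitted. Against shGFP it rose by 0.24 (adjusted p = 0.0252), lost without any 1 of the shGFP arrays or of rescue replicates 1 and 2 (adjusted p of 0.0639 to 0.0915) and with arrays centred on their medians (0.0843).

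Among 22 regulators of mitochondrial DNA expression and biogenesis, 2 rose and 1 fell in shFoxk1 against shGFP, 0 were called in rescue against shFoxk1, and 1 fell in rescue against shGFP. These are 13.6%, 0% and 4.55% of the list, beside 4.24%, 0.953% and 5.04% of all genes. Ppargc1a, the coactivator PGC-1alpha, had values of 5.91, 6.20 and 6.17 in shGFP, 5.73, 5.72 and 5.67 in shFoxk1 and 5.55, 5.54 and 5.64 in rescue, and its 3 groups did not overlap. It fell by 0.39 in shFoxk1 (adjusted p = 0.0123) and by 0.52 in rescue against shGFP (adjusted p = 0.00237). The first call was lost without shGFP replicate 2 (adjusted p = 0.0598), shGFP replicate 3 (0.0599) or shFoxk1 replicate 3 (0.0539). With the mean of its probe sets the changes were -0.25 (adjusted p = 0.0441) and -0.31 (0.0132). Ppargc1a had a mean level of 5.79, below the median of 6.56 over all genes, so the filter on low values left it out.

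Tfam and Polrmt, the packaging factor and the RNA polymerase of mitochondrial DNA, were the regulators that rose in shFoxk1. Tfam had values of 11.13, 11.05 and 11.03 in shGFP, 11.36, 11.29 and 11.29 in shFoxk1 and 11.18, 11.12 and 11.17 in rescue, where shFoxk1 lay above both other groups. Tfam rose by 0.24 (adjusted p = 0.0171), a call lost without shGFP replicate 2 (0.0756), shGFP replicate 3 (0.0782) or shFoxk1 replicate 1 (0.0823), with arrays centred on their medians (0.0514) and with the mean of its probe sets, which moved the change to 0.16 (0.0712). Polrmt rose by 0.27 (adjusted p = 0.0106), lost without shFoxk1 replicate 1 (0.0523).

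**Figure D4:**
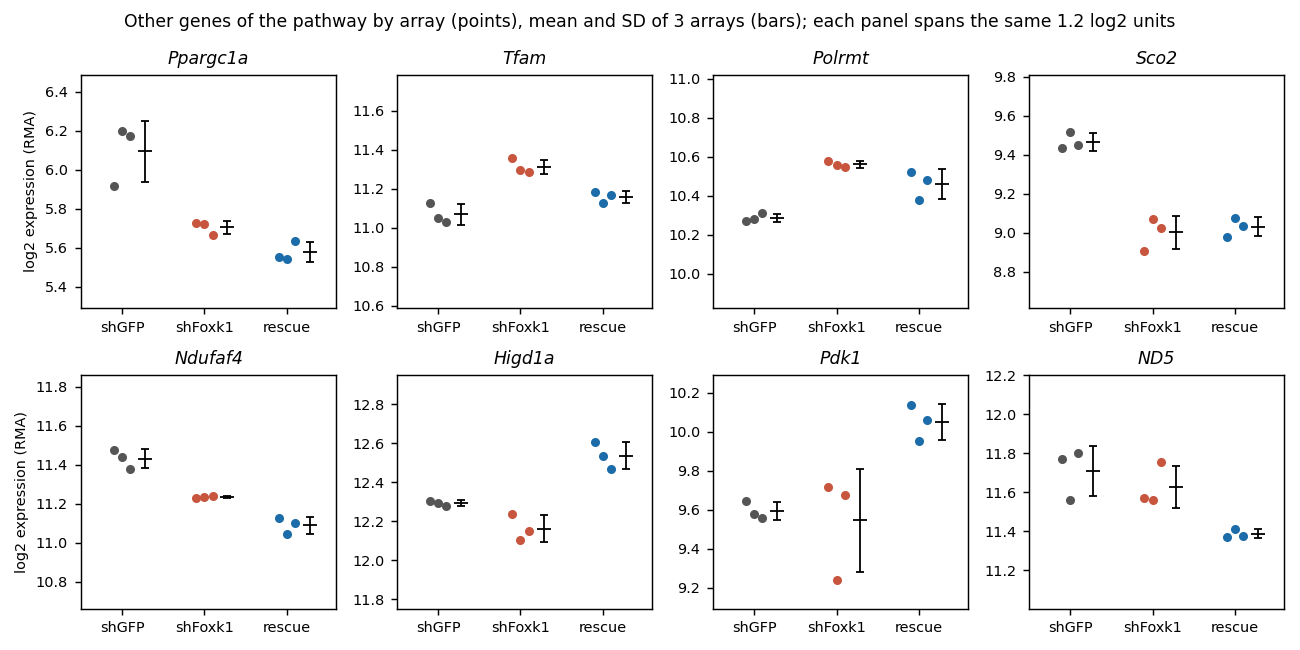
Log2 expression (y axis) of 8 other genes of the pathway on each of the 9 arrays (points), with the mean and SD of 3 arrays (bars); each panel spans the same height of log2 units. Sco2, Ndufaf4 and Ppargc1a lie lower in both hairpin groups than in shGFP, Tfam and Polrmt are highest in shFoxk1, and Higd1a is highest in rescue.

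A single subunit encoded in mitochondrial DNA had a named probe set, ND5 of complex I. Its values were 11.77, 11.56 and 11.80 in shGFP, 11.57, 11.56 and 11.75 in shFoxk1 and 11.37, 11.41 and 11.38 in rescue. All rescue arrays lay below all others, and ND5 fell by 0.32 in rescue against shGFP (adjusted p = 0.0299). The call was lost without shGFP replicate 1 (0.117) or 3 (0.115) and without rescue replicates 1 (0.0663), 2 (0.0665) or 3 (0.0970).

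Lists next to the complexes were counted beside the 4.24%, 0.953% and 5.04% of all genes called in the 3 comparisons. The 15 citric acid cycle enzymes gave 0 calls with limma in each of the 3 comparisons (2, 2 and 3 at an unadjusted p under 0.05). The ATP synthase inhibitor and the nucleotide and uncoupling carriers, 8 genes in all, also gave 0 calls (0, 1 and 0). Of 76 mitochondrial ribosomal proteins, 0 were called in the first 2 comparisons (8 and 3 at an unadjusted p under 0.05). In rescue against shGFP 2 were called (2.63%), 1 higher and 1 lower. The median changes of the 76 were -0.03, 0.01 and -0.03. Of 16 genes of cytochrome c and coenzyme Q, 1 rose in shFoxk1 against shGFP, 0 were called in rescue against shFoxk1, and 1 rose and 1 fell in rescue against shGFP.

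A list of 12 genes linked to oxygen supply or stress that act in or on mitochondria had 1 called higher and 1 lower in shFoxk1 against shGFP, 2 higher in rescue against shFoxk1, and 4 higher and 2 lower in rescue against shGFP. These are 16.7%, 16.7% and 50% of the list, beside 4.24%, 0.953% and 5.04% of all genes, and the list was chosen with earlier results of these data known. Its called genes include Higd1a and Tmem70, which were also counted above among the assembly factors. Bnip3, a mitophagy receptor, is another. Mxi1 rose against shGFP both in shFoxk1 (0.28, limma adjusted p = 0.0120) and in rescue (0.52, adjusted p = 0.000336). The rescue call of Mxi1 was kept without each array in turn. Its other call was lost without shGFP replicate 2 (0.0623) or shFoxk1 replicate 1 (0.0617) and with the mean of its probe sets (0.150). Pdk1 rose by 0.46 in rescue against shGFP, and Chchd4 and Tmem70 fell by 0.20 and 0.23. With each array left out in turn, the calls of Pdk1, Chchd4 and Tmem70 were kept in 3, 1 and 5 of 9 fits. Bnip3 had values of 11.58, 11.46 and 11.55 in shGFP, 11.38, 11.04 and 11.20 in shFoxk1 and 12.31, 12.20 and 12.22 in rescue, with no overlap between the groups. It rose by 1.03 in rescue against shFoxk1 and by 0.71 in rescue against shGFP, and both calls were kept without each array in turn. In shFoxk1 against shGFP Bnip3 fell by 0.32 (limma adjusted p = 0.0466). That call was kept in 1 of the 9 fits that left out an array. Within the subunits themselves, the oxygen-linked isoforms Cox4i2 and Ndufa4l2 were not called in those comparisons, as described above.

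**Figure D5:**
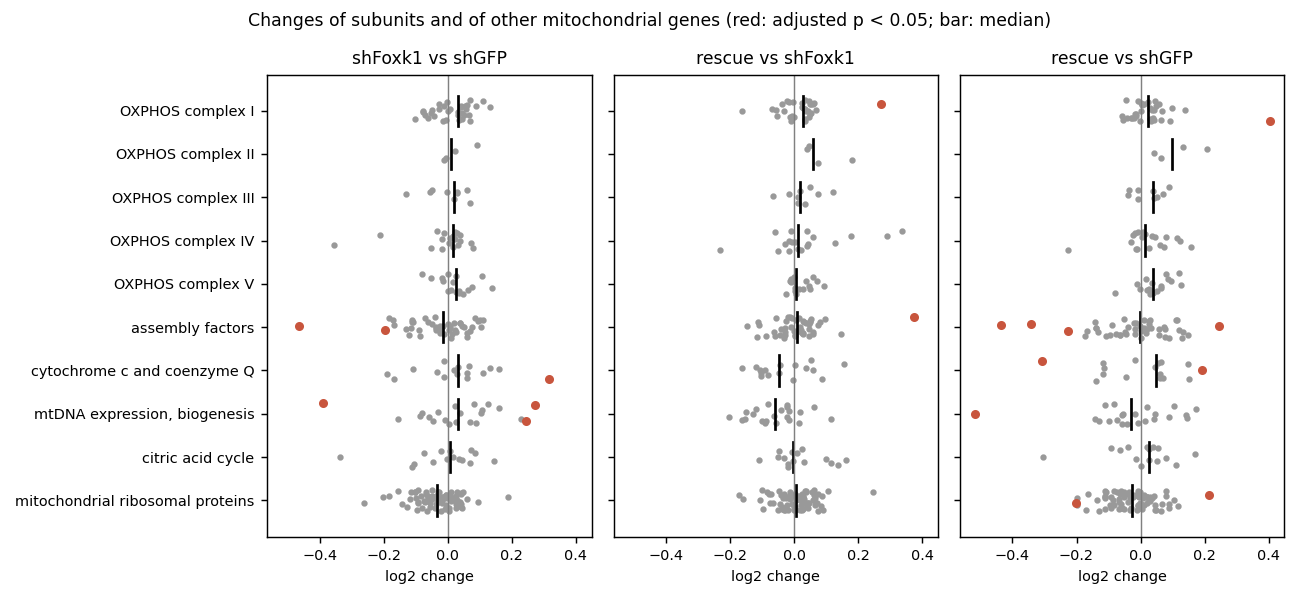
Log2 change (x axis) of every measured gene (points) of the 5 complexes and of 5 related lists in the 3 comparisons, with the median of each list as a bar and called genes in red. The 82 subunit genes hold 1 red point in rescue against shFoxk1 and 1 in rescue against shGFP, both Ndufv3, and the medians of the complexes lie close to 0.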

How the data were processed

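Per the labels' protocols, total RNA of 9 MEF samples was purified with a Qiagen kit, labelled with biotin and hybridised to 1 array each. The authors deposited log2 expression values which per the submitters' processing notes come from RMA in affy. The sources used here give no versions, array design or probe positions. RMA makes the distributions of all arrays alike, so a change common to most genes is removed. The authors' deposited tables hold a log2 change, p-values and the statistics t and B, each a score, per the file headers.

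Symbols came from the authors' deposited tables, and 38089 probe sets had one. Each gene was represented by its probe set with the highest mean, and 49 members have several probe sets. limma 3.58.1 in R 4.3.3 fitted a mean per group over 9 arrays (6 residual and 4.46 prior degrees of freedom, two-sided moderated tests), with Benjamini-Hochberg adjustment over 20672 genes and a threshold of 0.05. The procedure was tested on simulated data. Values of 1 member are counted but not reported here singly. The number of arrays limits the precision.

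Members, lists and markers were chosen with earlier results of these data known. Named genes were the called members, the 2 smallest p-values per complex and comparison, tissue isoform pairs, catalytic subunits and called genes of other lists. Some of these list genes are given only as counts. Replicate numbers appear in the labels. Deviations from the group means correlated at 0.230, 0.137 and 0.126 between same-numbered shFoxk1 and rescue samples, all above a limit of 0.1. Same-numbered pairs with shGFP gave 0.129, 0.147 and 0.070 for shFoxk1 and 0.188, 0.126 and 0.060 for rescue. No values for differently numbered samples are set beside them, so they cannot show pairing, and the main fit was unpaired. Alternatives were array weights, trend and robust variances, a filter on low values, the mean of probe sets, all probe sets, no _x_at or _s_at probe sets, centred arrays, the 6 arrays compared, the replicate block and each array left out.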

Additional observations from a re-analysis of the deposited data

How the results depend on the processing

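With trend and robust variances, 3 members were called in shFoxk1 against shGFP (Atp5o, Cox7a1 and Ndufv3) and 6 in rescue against shGFP (Atp5o, Cox7a2l, Cox8a, Ndufa7, Ndufv3 and Sdhc). In rescue against shFoxk1 the count of called members was 0 with all probe sets tested, where more p-values are adjusted. It was also 0 with only the 6 arrays compared, where fewer arrays estimate the spread. Leaving out each array in turn gave 0 to 0, 0 to 1 and 1 to 2 called members in the knockdown comparison, in rescue against shFoxk1 and in rescue against shGFP. With arrays centred on their medians, the median change in rescue against shGFP was -0.015, and that of all genes -0.029; the cause was not tested. Without each array in turn the median changes were -0.004 to 0.028, 0.004 to 0.046 and 0.025 to 0.034. With the replicate number as a block, 0, 1 and 1 members were called, Ndufv3 had an adjusted p of 0.0299 against shFoxk1 and 0.00196 against shGFP, and no call of a member changed. The SE limits the rank of members such as Cox7a1 and Cox7b2, and it reached 0.113 among the tissue or oxygen isoforms of complex IV.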
